A study of Mus musculus with 7 samples.

Results

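The transcripts of 10 genes known for their work in fat cells were followed in mouse cutaneous squamous cell carcinomas, one tumour at a time. The genes were chosen by name as rows of the count table: Adipoq, Lep, Retn, Cfd, Plin1, Cidea, Cidec, Lpl, Fabp4 and Car3. They are 10 of 24433 genes tested, a gene being kept where any tumour had 5 reads or more, and all 10 passed this filter. Most of them showed no genotype difference that could be told from the spread within a group. Plin1, Cidec, Cfd, Car3, Adipoq, Lep and Retn were below 1 CPM (counts per 1 M) in 5 tumours and several times higher in a single tumour of the SOX2 group, RBBD12. Cidea was present in every tumour and lower in the SOX2 group, Lpl was above the Ivl:BRAFV600E range in each tumour of the SOX2 group without passing the test, and Fabp4 was present in every tumour with no order by genotype.

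Both groups of mice were on a C57BL/6J background and carried Ivl-CreERT2, a tamoxifen-inducible Cre recombinase driven by the involucrin promoter, together with 1 copy of an inducible BRAFV600E oncogene. Topical tamoxifen on the back switched the alleles on in IVL+ cells, the committed basal and suprabasal keratinocytes. The Ivl:BRAFV600E-SOX2LSL mice also carried 1 copy of a Rosa26 allele that makes SOX2 and eGFP after recombination. Bulk RNA of skin tumours taken at the clinical endpoint was depleted of ribosomal RNA and sequenced, and the body site of each tumour was not given in the sources used here. The Ivl:BRAFV600E tumours came from RBAV23 (female, 8.1 weeks old at induction, collected on day 88), RBAV25 (female, 8.0 weeks, day 88) and RBAV27 (male, 8.0 weeks, day 120). The females RBAV23 and RBAV25 carried a heterozygous tdRFP allele and RBAV27 did not. The Ivl:BRAFV600E-SOX2LSL tumours came from RBBD12 (male, 10.1 weeks, day 55), RBBD5 (male, 8.6 weeks, day 59) and RBBD9 (female, 7.9 weeks, day 70). Every tumour of the SOX2 group was collected before every Ivl:BRAFV600E tumour, so that genotype and time since induction cannot be told apart. Each tumour was from a different mouse, and n was 3 tumours per group.

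White adipocytes store triglyceride in a single large droplet, release it as fatty acids and secrete hormones into the blood. Brown adipocytes hold many small droplets and burn the lipid for heat. Fat lies directly under the dermis of mouse skin. The main regulators of adipocyte differentiation are PPARG and the C/EBP family of transcription factors, which bind the control regions of many of the genes followed here.

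Each tumour had 23565432 to 31152826 reads on genes. Levels are in CPM, reads per 1 M of the TMM-scaled library size, and the floor of detection, 3 counts, lay at 0.0839 to 0.143 CPM. Floors and intervals cover counting error alone, since reads copied by PCR are not separate molecules. The genotype labels were checked by EGFP, which had 0 counts in each Ivl:BRAFV600E tumour and 4957, 3410 and 3132 counts in RBBD12, RBBD5 and RBBD9. The tissue label was checked by 10 keratinocyte markers, whose summed level was 94481, 141468 and 123886 CPM in RBAV23, RBAV25 and RBAV27. In RBBD12, RBBD5 and RBBD9 it was 17846, 57361 and 52170 CPM. RBBD12, the tumour with the lowest keratinocyte sum, also had the highest sums of 13 macrophage markers and of 10 fibroblast and adipocyte progenitor markers. Member fold changes that rest on RBBD12 are given with and without it where the gene could still be tested. Ratios of pooled counts, values of r and shares of genes highest in RBBD12 are given with it only. Genes were compared between genotypes with edgeR's quasi-likelihood test, with Benjamini-Hochberg adjustment over all 24433 genes, and a gene was called at an adjusted p below 0.05.

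The bases before the transcription start are shown for Lep, Plin1 and Cidec, the 3 members found with the letters of a C/EBP site, and for Adipoq, which had none. Retn, Cfd and the upstream start of Cidec also had none and are not shown. The sequences are from RefSeq (GRCm38.p6), run 5′ to 3′ on the strand of the gene and stop at the first exon base of any GENCODE M21 transcript of the gene. Capitals mark TTGCNNAA, the letters searched for a C/EBP site on both strands.
Adipoq, chr16:23146286-23146535, plus strand: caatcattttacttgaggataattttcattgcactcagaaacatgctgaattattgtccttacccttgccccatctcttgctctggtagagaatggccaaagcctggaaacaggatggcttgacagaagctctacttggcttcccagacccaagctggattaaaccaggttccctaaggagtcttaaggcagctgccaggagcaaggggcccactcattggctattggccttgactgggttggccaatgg
Lep, chr6:29059971-29060219, plus strand: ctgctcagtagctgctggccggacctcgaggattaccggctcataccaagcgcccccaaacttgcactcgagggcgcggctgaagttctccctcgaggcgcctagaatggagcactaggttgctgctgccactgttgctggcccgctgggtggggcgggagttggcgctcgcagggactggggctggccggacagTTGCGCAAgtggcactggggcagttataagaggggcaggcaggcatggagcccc
Plin1, chr7:79732904-79733026, minus strand: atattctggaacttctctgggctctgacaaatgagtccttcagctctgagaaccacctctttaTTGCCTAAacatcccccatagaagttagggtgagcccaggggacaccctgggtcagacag
Cidec, chr6:113434765-113435014, minus strand: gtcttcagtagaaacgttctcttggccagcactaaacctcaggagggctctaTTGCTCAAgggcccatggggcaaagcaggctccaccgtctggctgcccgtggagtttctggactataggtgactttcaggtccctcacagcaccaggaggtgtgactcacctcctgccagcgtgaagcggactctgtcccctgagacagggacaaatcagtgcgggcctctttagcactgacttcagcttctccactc
The table used here held 6 of the 10 members in 7 windows of 250 bases before to 50 after a start. It did not hold Cidea, Lpl, Fabp4 or Car3. The C/EBP letters stood in 3 of the 7 windows. In Lep they began 55 bases before the start, and in the Cidec window shown, that of the downstream start, 198 bases before it. Plin1 had them at 187 bases and again, as TTGCCCAA, at 58 bases, inside the first exon of a longer transcript and therefore not shown. The same letters stood in 10.8% of all 32851 windows of this length. A direct repeat for PPARG and its partner RXR, searched as AGGNCANAGGNCA on both strands, stood in no window of the members and in 0.381% of all windows. The letters TATAAA were in no window of the members either, against 13.6% of all windows. A match is a description of the letters and not evidence that a factor binds.

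The first question was whether the secreted members differed between the genotypes. Adipoq, Lep, Retn and Cfd make the adipocyte's circulating products adiponectin, leptin, resistin and adipsin (complement factor D).

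Adipoq (ENSMUSG00000022878, chr16:23146536-23158028 of GRCm38, protein coding) is among the most specific transcripts of mature adipocytes. It had 0 counts in each of the 3 Ivl:BRAFV600E tumours, and 150, 0 and 3 counts in RBBD12, RBBD5 and RBBD9, or 4.20, 0 and 0.108 CPM. RBBD12 held 97.5% of the Adipoq signal summed over the 6 tumours, and the groups overlapped because RBBD5 was also at 0. With the reads of each group pooled and 3 counts over the whole Ivl:BRAFV600E group taken as the floor, the pooled level of the SOX2 group was at least 38.9-fold higher, a bound that rests on RBBD12. The difference did not pass the test (edgeR adjusted p = 0.197). Without RBBD12, Adipoq had fewer than 5 reads in every tumour and was not tested.

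Lep (ENSMUSG00000059201, chr6:29060220-29073877) encodes the hormone that reports the size of the fat stores to the brain. It had 0, 0 and 3 counts in RBAV23, RBAV25 and RBAV27, and 34, 0 and 0 counts in RBBD12, RBBD5 and RBBD9. RBBD12 was the only tumour above the floor, at 0.951 CPM, and the groups overlapped. The ratio of the pooled counts was 8.65 (95% counting interval 2.72 to 44.0), and the test did not pass (edgeR adjusted p = 0.410).

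Retn (ENSMUSG00000012705, chr8:3655770-3660110) encodes a hormone that in the mouse is made by white fat and linked to insulin resistance. It measured 0.0341, 0.231 and 0.238 CPM in RBAV23, RBAV25 and RBAV27, and 1.93, 0.0324 and 0.289 CPM in RBBD12, RBBD5 and RBBD9. Apart from RBBD12 the tumours of both genotypes lay in the same narrow range, at 8 counts or fewer. The log2 fold change was 2.21 (SE 1.30, edgeR adjusted p = 0.323), and it was -0.033 (SE 1.18, edgeR adjusted p = 0.99) without RBBD12.

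Cfd (ENSMUSG00000061780, chr10:79890853-79892655) encodes the serine protease that starts the alternative complement pathway and is one of the most abundant adipocyte transcripts. It measured 0.512, 0.693 and 0.855 CPM in RBAV23, RBAV25 and RBAV27, each above the floor, and 22.2, 0.259 and 0.722 CPM in RBBD12, RBBD5 and RBBD9. RBBD12 was 25.9 times the next tumour, while RBBD5 was the lowest of all 6, so that the groups overlapped. The log2 fold change was 3.50 (SE 1.52, edgeR adjusted p = 0.201) with RBBD12 and -0.48 (SE 0.57, edgeR adjusted p = 0.654) without it. The direction of this member therefore rested on a single tumour.

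**Figure D1:**
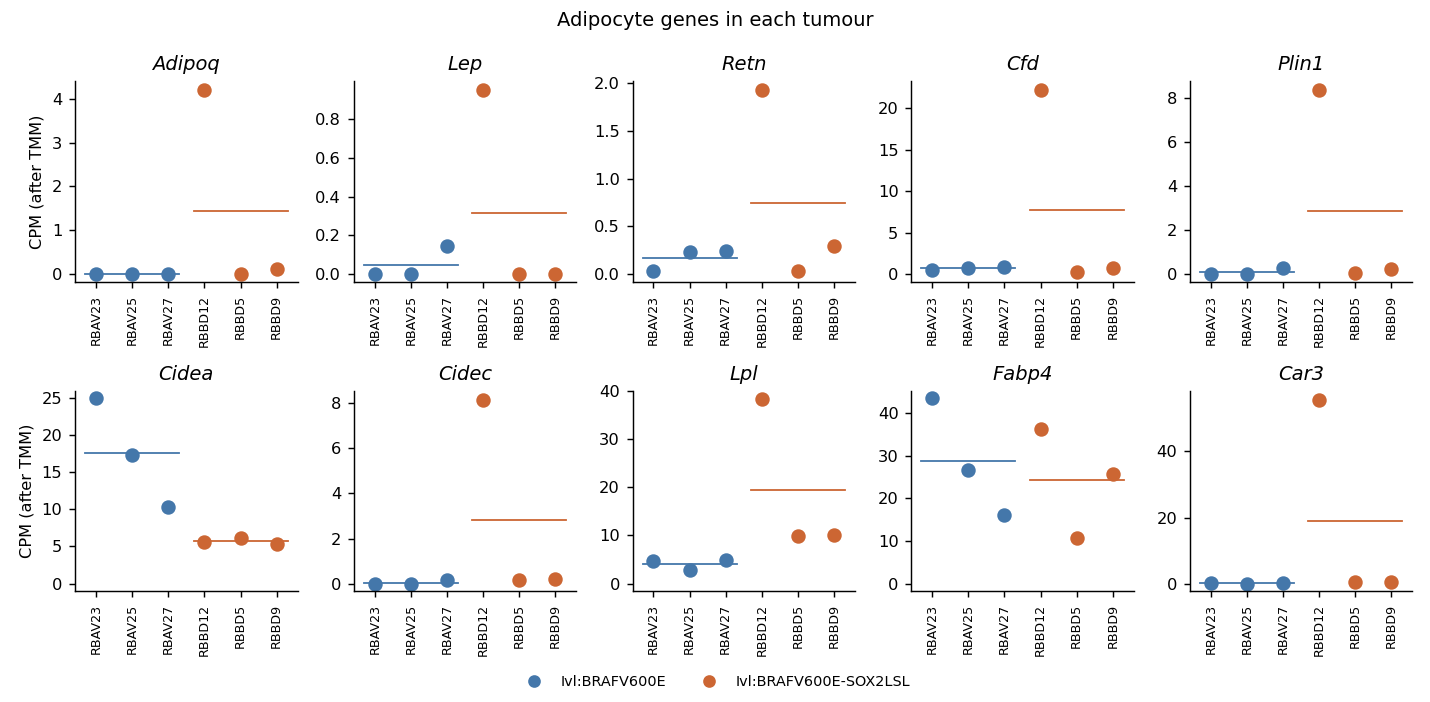
Level of each of the 10 members in each tumour, in CPM after TMM on a linear axis that differs between panels. Each point is 1 tumour, blue for Ivl:BRAFV600E and orange for Ivl:BRAFV600E-SOX2LSL, and each line is the mean of a group of 3 tumours. In 8 panels RBBD12 is the highest point, Cidea separates the genotypes in the other direction, and Fabp4 mixes them.

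The next question was whether the proteins of the lipid droplet followed the same pattern. Plin1 encodes perilipin 1, the coat that guards the droplet of adipocytes against lipases. CIDEC and CIDEA sit where droplets touch and pass lipid from the smaller to the larger, CIDEC in white fat and CIDEA in brown fat and in sebaceous glands.

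Plin1 (ENSMUSG00000030546, chr7:79720218-79732903) had 0, 0 and 6 counts in RBAV23, RBAV25 and RBAV27, and 299, 2 and 6 counts in RBBD12, RBBD5 and RBBD9. In CPM these are 0, 0 and 0.285 against 8.37, 0.0648 and 0.217. The groups overlapped, since RBAV27 was above both RBBD5 and RBBD9, and RBBD12 was 29.3 times the next tumour. The log2 fold change was 4.98 (SE 2.05, edgeR adjusted p = 0.183) and 0.61 (SE 1.58, edgeR adjusted p = 0.850) without RBBD12.

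Cidec (ENSMUSG00000030278, chr6:113424634-113435760) had 0, 0 and 3 counts in RBAV23, RBAV25 and RBAV27, and 291, 5 and 6 counts in RBBD12, RBBD5 and RBBD9. Its levels were 0, 0 and 0.143 CPM against 8.14, 0.162 and 0.217 CPM. The groups did not overlap, but RBBD5 and RBBD9 lay only 2 to 3 counts above RBAV27. The ratio of the pooled counts was 76.9 (95% counting interval 26.1 to 375), and the test did not pass (edgeR adjusted p = 0.128). Without RBBD12 the log2 fold change was 2.00 (SE 1.39, edgeR adjusted p = 0.434).

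Cidea (ENSMUSG00000024526, chr18:67343604-67367785) behaved in the opposite way. It measured 25.0, 17.4 and 10.3 CPM in RBAV23, RBAV25 and RBAV27, and 5.62, 6.15 and 5.31 CPM in RBBD12, RBBD5 and RBBD9. All Ivl:BRAFV600E tumours were above all tumours of the SOX2 group, whose values lay close together, and RBBD12 was in the middle of them. Cidea fell by 1.62 on the log2 scale (SE 0.32, edgeR adjusted p = 0.0423), from 17.5 ± 7.33 to 5.70 ± 0.427 CPM (SD, n = 3 each). It was the only one of the 10 members called, where 3.90% of all genes tested were called and 1.51% were called lower. With all tumours and the filter given above, edgeR called no member higher, where 2.39% of all genes were so called. The call lies close to the threshold. It was kept without RBBD12 (edgeR adjusted p = 0.0467) and lost with sex as a covariate (edgeR adjusted p = 0.121) or without RBAV23, RBAV25, RBBD5 or RBBD9 (edgeR adjusted p = 0.0886 to 0.138), with the same direction each time.

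Sebocytes are the other cells of mouse skin known to express Cidea. The summed level of 9 sebocyte markers was 242, 185 and 239 CPM in RBAV23, RBAV25 and RBAV27 and 205, 238 and 301 CPM in RBBD12, RBBD5 and RBBD9, and it overlapped between the genotypes. Much of this sum was Acsbg1, an acyl-CoA synthetase and the only sebocyte marker called, at 170, 182 and 153 CPM against 66.8, 87.6 and 88.9 CPM, lower by 1.05 on the log2 scale (edgeR adjusted p = 0.0253). The Acsbg1 call was lost with sex as a covariate and without RBAV23, RBAV25, RBAV27 or RBBD5. The sum of the other 8 markers, taken after their values were seen, ran the opposite way to Cidea. It came to 72.4, 2.96 and 86.5 CPM in RBAV23, RBAV25 and RBAV27 and 138, 150 and 212 CPM in RBBD12, RBBD5 and RBBD9, with no overlap. Krt79, Far2 and Elovl3 were each higher in the SOX2 group with no overlap and were not called, and the median log2 fold change of the list was 1.11. The wax synthase genes Awat1 and Awat2, named as defining markers after their values were seen, were at or below 5.71 CPM in every tumour. The summed keratinocyte level, given above, was lower in the SOX2 group with no overlap, in the direction of Cidea, but the markers were not of one direction. Of the 10, 5 were lower with no overlap (16.0% of all genes) and 1, Dsg3, was higher with no overlap (18.2% of all genes). With edgeR 0 of the 10 were called, and 6 had an unadjusted p below 0.05 (25.7% of all genes). DESeq2 called 5 (18.2% of all genes) and limma voom 2 (2142 of 24433 genes). Dsg3 was among those called by both of the other tools. The part of sebocytes or keratinocytes in the Cidea difference was not tested.

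Lpl and Fabp4 stand for the uptake and carriage of fatty acids. Lpl encodes lipoprotein lipase, which frees fatty acids from circulating triglyceride and is made by fat, muscle and macrophages. Fabp4 encodes the fatty acid carrier of adipocytes, which capillary endothelium and macrophages also make.

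Lpl (ENSMUSG00000015568, chr8:68880491-68907448) measured 4.81, 2.86 and 4.85 CPM in RBAV23, RBAV25 and RBAV27, and 38.3, 9.81 and 10.2 CPM in RBBD12, RBBD5 and RBBD9. Every tumour of the SOX2 group was above every Ivl:BRAFV600E tumour, and RBBD12 was 3.76 times the next. The log2 fold change was 2.22 (SE 0.58), which did not pass (edgeR adjusted p = 0.0756). Without RBBD12 the spread was smaller and Lpl was called, at a log2 fold change of 1.26 (SE 0.27, edgeR adjusted p = 0.0405), where 6.69% of all genes tested were called. It was also called by DESeq2 (adjusted p = 0.00150), where 18.2% of all genes were called, and by edgeR with no filter on low counts (adjusted p = 0.0347). Lpl was the only member called higher under any of the settings tried.

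Fabp4 (ENSMUSG00000062515, chr3:10204088-10208576) measured 43.7, 26.7 and 16.1 CPM in RBAV23, RBAV25 and RBAV27, and 36.4, 10.7 and 25.7 CPM in RBBD12, RBBD5 and RBBD9. The genotypes were mixed, with the highest value in an Ivl:BRAFV600E tumour and RBBD12 next to it. The log2 fold change was -0.25 (SE 0.49, edgeR adjusted p = 0.784), and its sign turned with sex as a covariate and without RBAV23 or RBBD5. The summed level of 12 endothelial markers was 284 to 292 CPM in the Ivl:BRAFV600E tumours and 272 to 330 CPM in the SOX2 group. None of the 12 was called by edgeR, and 2 had an unadjusted p below 0.05 (25.7% of all genes). DESeq2 called 1 (18.2% of all genes) and limma voom 1 (2142 of 24433 genes).

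Car3 (ENSMUSG00000027559, chr3:14863512-14872523) encodes carbonic anhydrase III, an enzyme abundant in the cytoplasm of white adipocytes and of slow muscle fibres. It measured 0.307, 0 and 0.238 CPM in RBAV23, RBAV25 and RBAV27, and 55.6, 0.453 and 0.614 CPM in RBBD12, RBBD5 and RBBD9. The groups did not overlap, and RBBD12 was 90.5 times the next tumour, the largest such step among the members. The log2 fold change was 6.61 (SE 2.16, edgeR adjusted p = 0.119) and 1.48 (SE 0.91, edgeR adjusted p = 0.377) without RBBD12.

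Skeletal muscle markers were also higher in the SOX2 group, and muscle shares Car3 and Lpl with fat. Of 19 muscle markers tested, 17 were called higher, where 2.39% of all genes were. The count was 18 with DESeq2, 8 with limma voom and 14 with sex as a covariate, and 0 without RBAV23, 2 without RBAV25, 7 without RBAV27 and 10 without RBBD5. Over all genes, 954 were called in the main fit, 3653 with DESeq2, 2142 with limma voom and 228 with sex as a covariate. Without RBAV23, RBAV25, RBAV27 or RBBD5 in turn, 22, 50, 179 and 202 of all genes were called. Their summed level was 9.45 to 24.4 CPM in the Ivl:BRAFV600E tumours and 3500, 3860 and 911 CPM in RBBD12, RBBD5 and RBBD9. RBBD5, the tumour with the highest muscle sum, had 0.453 CPM of Car3. Of 6 slow fibre markers, Myh7, Myl2 and Myl3 did not reach 5 reads in any tumour, and the list summed to 1.45 CPM in RBBD12 and 6.64 CPM in RBBD5. The part of muscle in the Car3 and Lpl values was not tested.

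**Figure D2:**
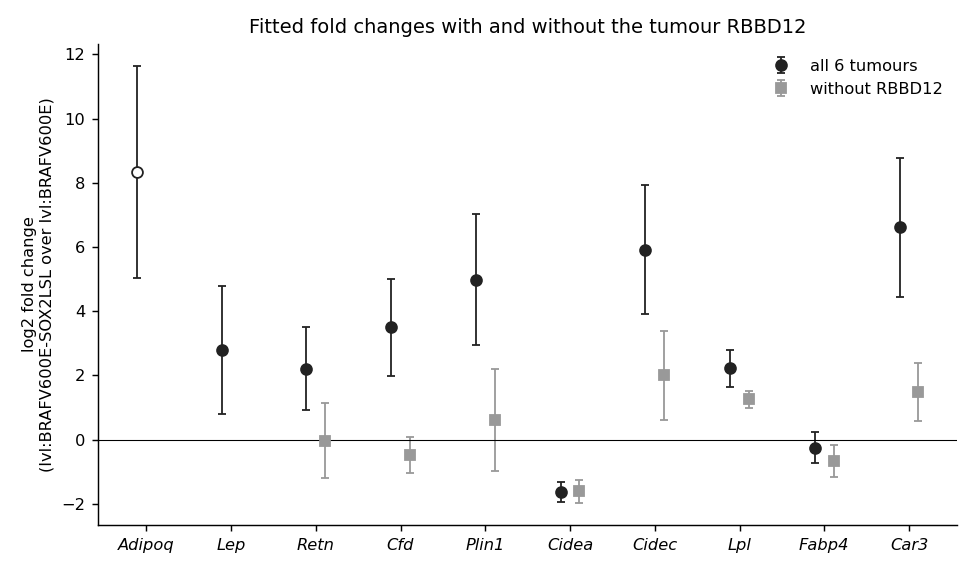
Fitted log2 fold change of each member, Ivl:BRAFV600E-SOX2LSL over Ivl:BRAFV600E, with bars for the standard error. Black circles use all 6 tumours and grey squares leave out RBBD12. The open circle marks Adipoq, whose fitted value depends on the prior count of the edgeR fit because one group is at 0. Adipoq and Lep have no square because too few reads remained. Without RBBD12 Cidea stays at -1.62, Lpl moves from 2.22 to 1.26, and the values of Plin1, Cidec and Car3 come closer to 0, while Retn and Cfd fall just below it.

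Across the 10 members, 3 were higher in the SOX2 group with no overlap (Cidec, Lpl and Car3), where 18.2% of all genes tested were so ordered. Cidea was lower with no overlap, as were 16.0% of all genes, and 6 members overlapped. At an unadjusted p below 0.05 there were 5 members, where 25.7% of all genes passed. The median log2 fold change of the members was 3.14, against 0.04 over all genes tested. Without RBBD12 it was 0.29 over the 8 members that could be tested, against 0.0058 over all genes.

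RBBD12 was the highest of the 6 tumours for 8 of the 10 members, where 28.6% of all genes tested had their highest value in this tumour. It was at least 4 times the next tumour for 7 members, where 2.45% of all genes were. The 7 were Car3, Adipoq, Cidec, Plin1, Cfd, Retn and Lep, and their ratios to the next tumour ran from 6.67 in Lep to 90.5 in Car3. Adipoq and Lep reached 5 reads in RBBD12 alone and so passed the filter only through it. The filter therefore set their place in this count in part. DESeq2, which withholds a p-value where 1 sample has a Cook's distance above a limit (18 here), gave none for Adipoq, Cfd, Plin1, Cidec and Car3, and the largest distance was that of RBBD12 for each. The sum of the 8 members other than Cidea and Fabp4, a choice made after their values were seen, was 5.66, 3.79 and 6.75 CPM in RBAV23, RBAV25 and RBAV27. It was 140, 10.8 and 12.4 CPM in RBBD12, RBBD5 and RBBD9, and most of the 10.8 and 12.4 CPM was Lpl. In bulk RNA, more cells of a type and more RNA per cell cannot be told apart.

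Levels can be ranked between genes once they are divided by exon length. In RBBD12 the members ran from Cfd at 24.1 CPM per kb of exon over Car3 at 19.4, Fabp4 at 8.11, Cidea at 5.04, Cidec at 4.39, Lpl at 3.65, Adipoq at 3.04, Plin1 at 1.80 and Retn at 1.22 to Lep at 0.284. The order was different elsewhere. In each Ivl:BRAFV600E tumour Cidea led and Fabp4 followed, at group means of 15.7 and 6.42 CPM per kb, and no other member exceeded 0.928 CPM per kb. In RBBD5 Cidea led Fabp4 (5.52 and 2.38 CPM per kb), in RBBD9 Fabp4 led Cidea (5.73 and 4.76 CPM per kb), and Lpl came next at 0.937 and 0.972 CPM per kb. Cidea, Fabp4 and Lpl went against the label of adipocyte genes, since all of them were well above the floor in the 4 tumours where Adipoq had no reads, and Cfd was above it there at 8 to 18 counts.

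The likeness of the members to Adipoq was described by Pearson's r of log2 CPM over the 6 tumours. It was 0.96 for Cfd and Cidec, 0.95 for Car3, 0.94 for Plin1, 0.90 for Lpl and Retn, 0.87 for Lep, 0.42 for Fabp4 and -0.52 for Cidea. These values are set largely by RBBD12 and share its library. Among 14430 other genes with a mean of at least 1 CPM, the 10 most like Adipoq were A230050P20Rik (r = 0.999), Pskh1, Lamb1, Prkcsh, Foxc2, Pla1a, Dcakd, Nckap5l, Prrg3 and Cx3cl1 (r = 0.99). Lamb1, a laminin chain of basement membranes, measured 302 CPM in RBBD12 and 51.8 to 84.9 CPM in the other tumours. Foxc2, a transcription factor of mesenchyme, lymphatic vessels and fat, measured 7.5 CPM in RBBD12 and 0.665 to 1.01 CPM elsewhere.

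The other genes of the adipocyte programme were taken from 7 lists with 83 genes, all of them tested. Of these, 4 were called higher and 2 lower, or 7.23% against 3.90% of all genes, with a median log2 fold change of 0.61. RBBD12 was the highest tumour for 44.6% of them, against 28.6% of all genes, and at least 4 times the next tumour for 9, or 10.8% against 2.45%. Among the 9, Pck1, Slc7a10, Cyp2e1, Acvr1c, Tshr and Mrap passed the filter on reads only through RBBD12. The filter therefore set their place in both shares in part. Gpd1, Thrsp and Zic1 also passed it in another tumour.

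Among 11 transcription factors of adipocyte differentiation, Cebpd alone was called, by edgeR, DESeq2 and limma voom. An unadjusted p below 0.05 was reached by 3 (25.7% of all genes). Cebpd, an early factor of the C/EBP cascade, measured 9.17, 6.98 and 10.2 CPM in RBAV23, RBAV25 and RBAV27 and 39.5, 34.3 and 33.7 CPM in RBBD12, RBBD5 and RBBD9. It rose by 2.03 on the log2 scale (SE 0.18, edgeR adjusted p = 0.00708) in all 3 tumours alike, a call lost without RBAV23. Cebpa measured 212 to 255 CPM in the Ivl:BRAFV600E tumours and 75.4, 174 and 239 CPM in RBBD12, RBBD5 and RBBD9, lowest in the tumour with the most Adipoq. Pparg, named for its role after its values were seen, was at 2.00 to 4.98 CPM in every tumour, with RBBD12 (4.87 CPM) just under RBAV23 (edgeR adjusted p = 0.691). Rxra and Cebpb, also above the other factors in level, were not called.

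The genes of fatty acid and triglyceride synthesis, 17 in number, gave 1 call by edgeR. Of them 9 had an unadjusted p below 0.05 (25.7% of all genes). DESeq2 called 6 (18.2% of all genes) and limma voom 3 (2142 of 24433 genes). With no overlap, 6 were lower (16.0% of all genes) and 4 higher (18.2% of all genes). Acsl1, which couples fatty acids to coenzyme A, fell by 1.20 on the log2 scale (SE 0.23, edgeR adjusted p = 0.0423), from 233 ± 14.7 to 101 ± 31.5 CPM (SD, n = 3 each). This call was lost with sex as a covariate and without RBAV23, RBAV25, RBAV27 or RBBD5. Scd2, Fasn and Acly, the desaturase, fatty acid synthase and citrate lyase, were at 259 to 1004 CPM in all tumours and were not called. A few genes of this list, named after their values were seen, followed RBBD12. Gpd1, which makes the glycerol backbone of triglyceride, had 7.47 CPM in RBBD12 and 0.185 to 0.842 CPM in the others, and Pck1, which feeds the same step in fat, had 105 counts in RBBD12 and 1 count in the other 5 tumours together.

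None of 13 lipolysis and droplet genes was called by edgeR, with 5 at an unadjusted p below 0.05 (25.7% of all genes). DESeq2 called 4 (18.2% of all genes) and limma voom 2 (2142 of 24433 genes). Abhd5, Plin2 and Cav1 had the highest means of this list. Plin2, the droplet coat of most cells that are not adipocytes, measured 48.6 to 144 CPM in the Ivl:BRAFV600E tumours and 177, 39.8 and 38.8 CPM in RBBD12, RBBD5 and RBBD9. Of 6 genes of fatty acid uptake and lipase control, none was called by edgeR, and 3 had an unadjusted p below 0.05 (25.7% of all genes). DESeq2 called 3 (18.2% of all genes) and limma voom 2 (2142 of 24433 genes). Fabp5, the epidermal fatty acid carrier, was the highest at 3479 to 4741 CPM against 824, 1708 and 2166 CPM, with no overlap (log2 fold change -1.33, SE 0.36, edgeR adjusted p = 0.0821). Angptl4, a secreted inhibitor of lipoprotein lipase, measured 1.85 to 4.51 CPM in the Ivl:BRAFV600E tumours and 34.2, 11.8 and 10.3 CPM in RBBD12, RBBD5 and RBBD9 (log2 fold change 2.52, SE 0.55, edgeR adjusted p = 0.0540).

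**Figure D3:**
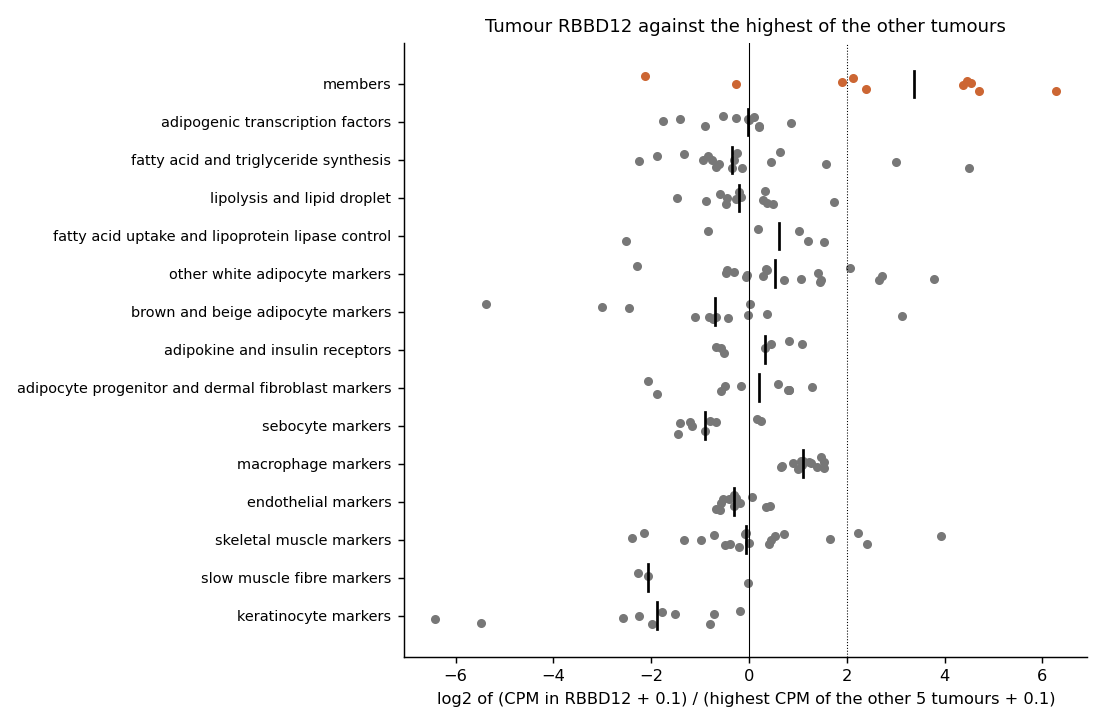
For each gene, log2 of the CPM in RBBD12 over the highest CPM of the other 5 tumours, with 0.1 CPM added to both. Orange points are the 10 members, grey points the genes of each list, black bars the medians, and the dotted line marks a ratio of 4. Of the 10 members 7 lie to the right of that line, as do 7 of the 83 other adipocyte genes. Thrsp and Mrap, whose levels are also at least 4 times the next tumour, lie to its left because of the added 0.1 CPM.

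The 18 other white adipocyte markers held 2 calls by edgeR, with 4 at an unadjusted p below 0.05 (25.7% of all genes). DESeq2 called 4 (18.2% of all genes) and limma voom 2 (2142 of 24433 genes). Pde3b, the phosphodiesterase through which insulin restrains lipolysis, measured 1.94, 3.33 and 3.23 CPM in RBAV23, RBAV25 and RBAV27 and 21.96, 20.5 and 22.9 CPM in RBBD12, RBBD5 and RBBD9 (log2 fold change 2.95, SE 0.24, edgeR adjusted p = 0.00562). Rbp4, the plasma retinol carrier, was near the floor in the Ivl:BRAFV600E tumours and at 0.979, 1.23 and 1.08 CPM in RBBD12, RBBD5 and RBBD9 (log2 fold change 5.13, SE 0.79, edgeR adjusted p = 0.0266). Pde3b was called under every setting tried, whereas Rbp4 was lost with sex as a covariate and on leaving out any tumour but RBBD12. Unlike the members of the single-tumour pattern, both were as high in RBBD5 and RBBD9 as in RBBD12. In the same list Cyp2e1, Slc7a10, Acvr1c, Tshr and Mrap, named after their values were seen, were at least 4 times higher in RBBD12 than in the next tumour, with 10 to 69 counts in RBBD12 and 3 or fewer in each other tumour. Aoc3, an amine oxidase on the adipocyte surface, measured 17.2 CPM in RBBD12 and 4.57 to 6.22 CPM in the others.

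Of 12 brown and beige markers, 6 had an unadjusted p below 0.05 (25.7% of all genes). DESeq2 called 4 (18.2% of all genes) and limma voom 2 (2142 of 24433 genes). With edgeR, Cox8b was called higher and Tbx1 lower. Cox8b, a cytochrome oxidase subunit of brown fat and of heart and skeletal muscle, measured 1.65, 2.27 and 0.686 CPM in RBBD12, RBBD5 and RBBD9 and at most 0.0682 CPM in the Ivl:BRAFV600E tumours (edgeR adjusted p = 0.0269), and the part of muscle in these values was not tested. Tbx1, a T-box factor that marks beige fat and also skin appendages, fell by 3.92 on the log2 scale (SE 0.49, edgeR adjusted p = 0.0168). Both calls were lost without RBAV23, RBAV25 or RBAV27, and that of Cox8b also without RBBD5 and with sex as a covariate. Ucp1, the uncoupling protein that defines brown fat, named after its values were seen, did not exceed 0.60 CPM in any tumour. Zic1, a marker of brown fat precursors named for the same reason, had 118 counts in RBBD12, 9 in RBBD5, 1 in RBBD9 and 0 in the Ivl:BRAFV600E tumours.

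None of 7 receptors and mediators for adipokines and insulin was called by edgeR, with 2 at an unadjusted p below 0.05 (25.7% of all genes). DESeq2 called 2 (18.2% of all genes) and limma voom 1 (2142 of 24433 genes). Adipor1 and Adipor2, the adiponectin receptors, were at 198 to 295 CPM and 75.4 to 220 CPM in all tumours, and Insr at 57.9 to 94.3 CPM. Tumours without detectable Adipoq therefore had transcripts of its receptors.

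Of the marker lists of other cell types, the macrophage and fibroblast lists had their highest sums in RBBD12. The sebocyte, endothelial and skeletal muscle sums of RBBD12 lay inside the range of the other tumours. All 13 macrophage markers were highest in RBBD12, where 28.6% of all genes were. Their summed level was 80.4, 94.0 and 187 CPM in RBAV23, RBAV25 and RBAV27 and 765, 340 and 212 CPM in RBBD12, RBBD5 and RBBD9. Of the 13, 10 were higher in the SOX2 group with no overlap (18.2% of all genes) and 12 had an unadjusted p below 0.05 (25.7% of all genes). DESeq2 called 10 (18.2% of all genes) and limma voom 4 (2142 of 24433 genes). With edgeR only Csf1r, the receptor for the main macrophage growth factor, was called (log2 fold change 1.98, SE 0.41, edgeR adjusted p = 0.0483), a call lost with sex as a covariate and on leaving out any tumour but RBBD12. None of these markers reached 4 times the next tumour in RBBD12. The 10 fibroblast and adipocyte progenitor markers summed to 1712, 638 and 4039 CPM in RBAV23, RBAV25 and RBAV27. In RBBD12, RBBD5 and RBBD9 they summed to 6532, 3220 and 3811 CPM. None was called by edgeR, and 2 had an unadjusted p below 0.05 (25.7% of all genes). DESeq2 called the same 2 (18.2% of all genes) and limma voom 1 (2142 of 24433 genes). The 2 went opposite ways, Pdgfra higher (log2 fold change 1.48) and Dpp4 lower (-1.25), each with no overlap. The collagen genes Col1a1 and Col3a1 made up 6104 CPM of the sum in RBBD12, and 5 of the 10 markers were highest in that tumour. The part of these cells in the members' levels was not tested.

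**Figure D4:**
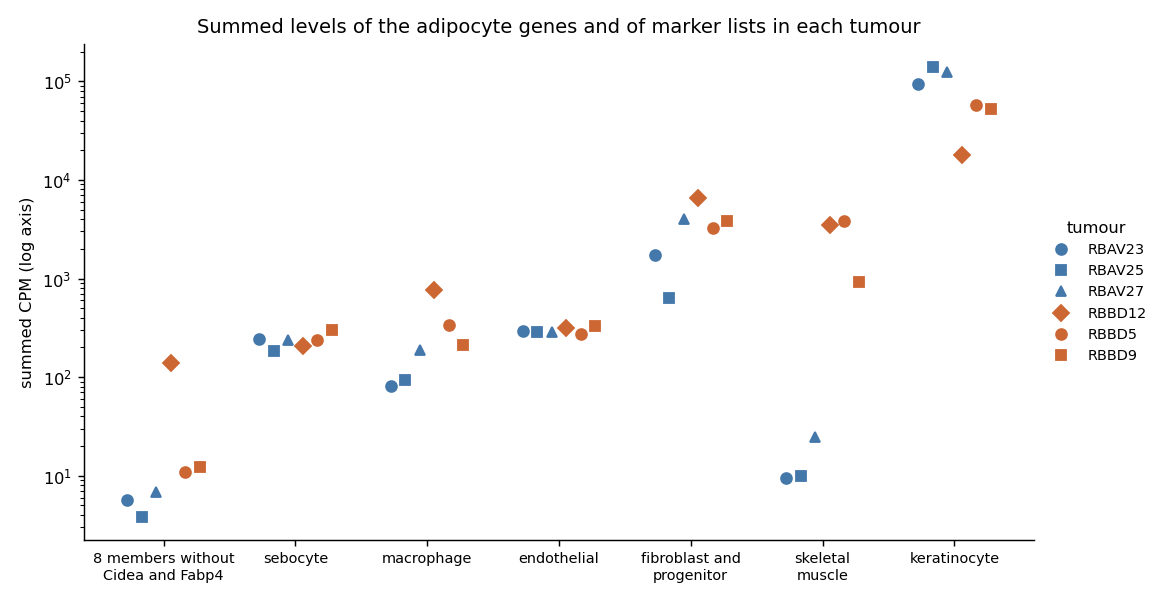
Summed CPM per tumour, on a log axis, of the 8 members other than Cidea and Fabp4 and of the marker lists of other cell types. Blue symbols are Ivl:BRAFV600E tumours and orange symbols Ivl:BRAFV600E-SOX2LSL tumours, and the diamond is RBBD12. RBBD12 is highest for the members (140 CPM), macrophage (765 CPM) and fibroblast lists and lowest for the keratinocyte list, and it is inside the range of the others for sebocytes, endothelium and skeletal muscle.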

How the data were processed

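The authors trimmed the reads with Trim Galore after FastQC 0.11.8, aligned them to GRCm38 with HISAT2 2.1.0 and counted them per gene with featureCounts of Subread 1.6.3. They deposited raw counts per gene, with no normalisation or filter, and whether strand or multimapping reads were used is not given in the sources used here. The exons of the 10 members overlap those of no other gene in GENCODE M21. Of 7 columns in the table, 6 matched a listed mouse of known genotype and were used, and 1 was not used because its group is uncertain. Sample labels are numbered and columns are named by mouse, and no number could be given to a column.

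Of 55423 features, the 24433 with 5 reads or more in any tumour were kept. Libraries were scaled by TMM, and the quasi-likelihood test of edgeR 4.0.16 (R 4.3.3) was run with genotype as the only factor. Log2 CPM used a prior count of 2, and the edgeR fit used its own default prior count. The alternatives were DESeq2 1.42.0, limma 3.58.1 (voom with sample weights), other scalings and filters, sex as a covariate, and each tumour left out in turn. The scripts were tested on simulated data with known changes. P-values measure the spread between 3 tumours per group. The members, gene lists and tests were chosen with earlier results of these data known, and the 10 members were named in full. In the other lists the called genes, up to 5 per list, and up to 3 uncalled genes with the highest mean were named, with exceptions marked in the text. Python 3.11.15 with pandas 2.3.3 made the tables, and matplotlib 3.10.9 drew the plots.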

Additional observations from a re-analysis of the deposited data

How the results depend on the processing

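With 3 tumours per group and 1 of them far from the others, the spread within the SOX2 group limits the statements on the members other than Cidea and Fabp4, whose spread was larger among the Ivl:BRAFV600E tumours, and depth limits those on Adipoq, Lep, Retn, Plin1 and Cidec in the other tumours. The count of called genes, 954 with edgeR, was 3653 with DESeq2, 2142 with limma voom, 1759 with no filter on low counts and 228 with sex as a covariate, and 22 to 1575 on leaving out a single tumour. The count of called members, 1 (Cidea), was 2 with DESeq2 and with no filter (Cidea and Lpl in both), 0 with sex as a covariate and 0 to 2 with a tumour left out. It was 0 without RBAV23, RBAV25, RBBD5 or RBBD9 in turn, and 2 without RBBD12. The count of called companion genes of the adipocyte programme, 6, was 24 with DESeq2, 13 with limma voom, 12 with no filter, 3 with sex as a covariate and 1 to 14 with a tumour left out. It was 1 without RBAV23, 2 without RBAV25 or RBAV27, 14 without RBBD12 and 3 without RBBD5. Among markers of other cell types 19 were called, 38 with DESeq2 and 0 to 23 with a tumour left out, the lowest being 0 without RBAV23 2 without RBAV25, 7 without RBAV27 and 10 without RBBD5. The sign turned for Lep (-0.44) and Cfd (-0.027) with limma voom, for Fabp4 with sex as a covariate (0.044), without RBAV23 (0.18) and without RBBD5 (0.11), and for Retn (-0.033) and Cfd (-0.48) without RBBD12. Over all tumours left out in turn, the log2 fold change ran from -0.033 to 2.76 for Retn, from -0.48 to 4.06 for Cfd and from -0.67 to 0.18 for Fabp4. Without RBAV27 it was 9.40 for Plin1, 9.38 for Cidec and 6.26 for Lep. These fitted values depend on the prior count of the edgeR fit because the Ivl:BRAFV600E group is then at 0. The cause of these changes was not tested. Another scaling moved the median over all genes tested, in log2 fold change, from 0.04 to 0.03 (DESeq2 size factors) or -0.06 (upper quartile), and no member changed its call under either. No paired analysis was possible because the columns carry no replicate number.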
